A study of Mus musculus with 6 samples.

Results

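Haemoglobin and erythroid genes were examined in thymus RNA of 2 F1 mouse crosses, as every probe set whose platform annotation gave exactly 1 symbol out of Hba-a1, Hba-a2, Alas2, Slc4a1, Ahsp, Klf1, Gata1 and Epor. This took 9 of the 45101 probe sets, for 7 of the 8 genes in the rule (7 of 18193 genes with such a probe set in all), and Ahsp was not analysed here. The arrays were single-channel Affymetrix mouse arrays, 3 from (AKR/J x FVB/NJ)F1 females (the AKR cross) and 3 from (DBA/2J x FVB/NJ)F1 females (the DBA cross), all adult. All animals thus carry 1 FVB/NJ parental genome, and the crosses differ in the other one. No treatment was compared: the animals were killed under Avertin anaesthesia and the whole thymus tissue was frozen before RNA extraction, so any blood held in the tissue was measured with it. Whether each array stands for its own animal is not stated, so the spread between arrays may be technical.

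Haemoglobin carries oxygen in red blood cells and is built from alpha chains, made in the adult from the paired genes Hba-a1 and Hba-a2, and beta chains, made from the Hbb genes. Each chain holds a haem group, whose synthesis in red cell precursors starts with Alas2. The transcription factors Gata1 and Klf1 switch these genes on through GATA and CACCC motifs, and Epor, the receptor for erythropoietin, keeps the precursors alive. The thymus is mainly a T cell organ and is not an adult site of red cell production. Young red cells in its blood vessels still hold globin and Alas2 RNA.

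The probe sets annotated to both alpha globin genes, to several beta globin genes and to Alas2 moved together over the arrays. Whether the sequences before the starts of these genes have a part in this was not tested. Those of Hba-a1, Hba-a2 and Alas2 are shown. They are the 250 bases upstream of the start, written 5′ to 3′ on the plus strand, from RefSeq on build GRCm38.p6, which is a C57BL/6J genome and not that of a strain used here. Capitals mark a match, on either strand, to GATAA (here called the GATA motif), to CCACCC (called the CACCC box), to CCAAT (called the CCAAT box) or to TATAA (called the TATA box).

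Hba-a1 (chr11:32283422-32283671): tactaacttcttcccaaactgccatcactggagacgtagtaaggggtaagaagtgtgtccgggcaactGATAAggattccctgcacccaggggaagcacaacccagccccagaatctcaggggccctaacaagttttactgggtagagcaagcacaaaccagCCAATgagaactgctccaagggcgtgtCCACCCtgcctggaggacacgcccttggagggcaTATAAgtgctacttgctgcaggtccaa

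Hba-a2 (chr11:32296242-32296491): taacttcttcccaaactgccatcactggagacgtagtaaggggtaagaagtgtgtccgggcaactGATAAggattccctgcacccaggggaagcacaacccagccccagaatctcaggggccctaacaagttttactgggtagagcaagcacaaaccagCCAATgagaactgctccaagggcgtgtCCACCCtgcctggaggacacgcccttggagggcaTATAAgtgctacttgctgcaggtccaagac

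Alas2 (chrX:150547167-150547416): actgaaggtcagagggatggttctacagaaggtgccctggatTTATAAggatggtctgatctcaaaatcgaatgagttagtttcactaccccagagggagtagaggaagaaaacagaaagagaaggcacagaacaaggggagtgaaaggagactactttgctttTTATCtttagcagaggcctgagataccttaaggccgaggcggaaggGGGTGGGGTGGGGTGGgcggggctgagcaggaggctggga

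Shifted by 3 bases, the Hba-a1 and Hba-a2 windows shared all of 247 aligned bases, with 0 differences. Each held 1 copy of each of the 4 motifs. From 5′ to 3′ the GATA motif came first, then the CCAAT box, then the CACCC box and last the TATA box. The Alas2 window held 1 GATA motif, 86 bases before the start, and 3 CACCC motifs on the minus strand that overlap each other by single bases. Its TATA box matches on the plus and minus strands overlap too, 207 and 208 bases before the start. Those of Hba-a1 and Hba-a2 lay 27 and 30 bases before it. Windows were in the table for 6 of the members, of which 5 held a GATA motif and 5 a CACCC motif, the exceptions being Gata1 and Klf1. Of 32851 windows of this length in the table, 22.6% held the GATA motif, 28.1% the CACCC box, 33.8% the CCAAT box and 22.8% the TATA box. Of the beta globin genes, the Hbb-bs window held 1 GATA motif and 0 CACCC boxes, and the Hbb-bt window held 1 GATA motif and 1 CACCC box. The Epor window held 1 GATA motif and 2 CACCC boxes, and the Epor probe set lacked the array order of Alas2 given below. A match is a description of letters and not of binding.

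Among the members, the Hba-a2 probe set was higher in the AKR cross, and the others differed little between the crosses. The members were chosen by gene symbol with the difference of this contrast known, that of Hba-a2 among them, so their values are a description and no p-value is given for them. All values are log2 probe set values. The test took in probe sets that exceeded the 40th percentile (5.21 to 5.28) on 3 or more of the 6 arrays, which kept 5 members, those of Hba-a2, Alas2, Klf1, Gata1 and Epor. A call is an adjusted p under 0.05 in limma, after Benjamini-Hochberg. The call was made for 1 of the 5 tested members, Hba-a2, beside a background of 27.2% of 27385 tested probe sets. Nothing is read from this count, since that difference was known when the members were chosen and this probe set entered the test only through the arrays of the cross where it is high. The groups did not overlap for 1 of the 9 members, against 35.5% of all 45037 probe sets that are not controls. The median difference, AKR minus DBA, was 0.09 over the 9 members and 0.03 over all 45037 probe sets.

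**Figure D1:**
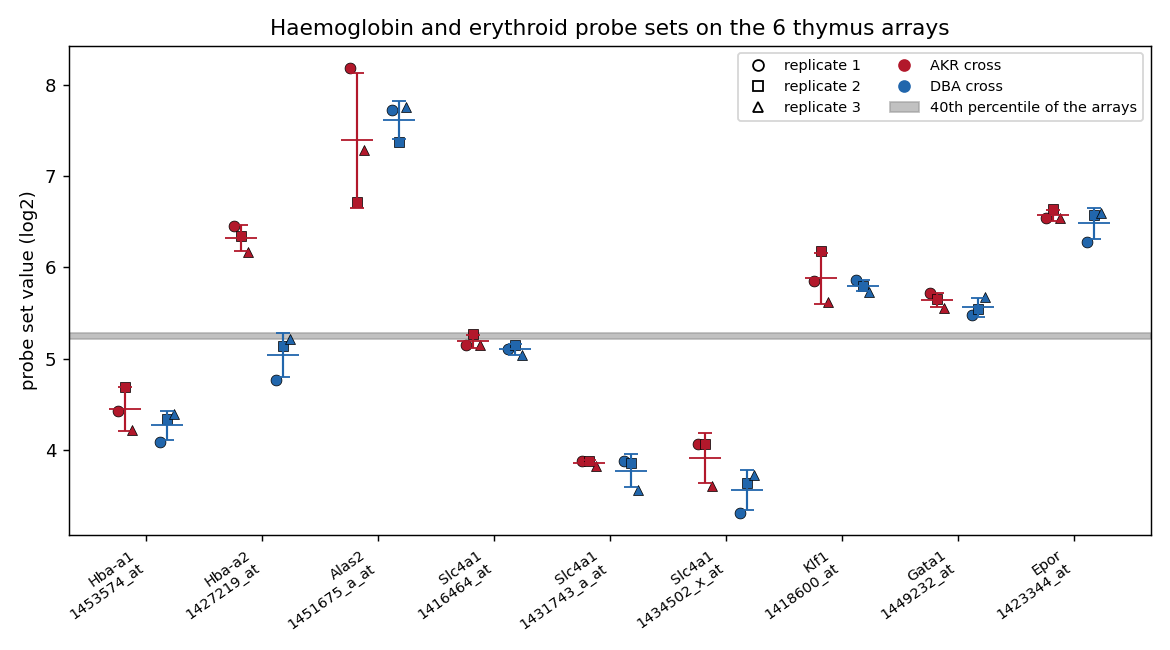
Log2 value of each member probe set on each of the 6 arrays (points, shaped by replicate) with group mean and SD (bars, n = 3 each) and the 40th percentile of the arrays (grey band). The 3 AKR points of Hba-a2 lie between 6.17 and 6.45, above the 3 DBA points at 4.77 to 5.21, and the AKR points of Alas2 spread from 6.71 to 8.18 around the DBA points.

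The alpha chain gene Hba-a2 has a probe set of its own, 1427219_at. It read 6.45, 6.34 and 6.17 on AKR arrays 1, 2 and 3, and 4.77, 5.14 and 5.21 on DBA arrays 1, 2 and 3. All AKR arrays were higher than all DBA arrays. The means were 6.32 ± 0.14 and 5.04 ± 0.24 (SD, n = 3 each), a log2 difference of 1.28 ± 0.14 (SE) or 2.42-fold. All 3 DBA values were under the 40th percentile, so this probe set passed the filter only through the AKR arrays, and the size of its difference is not exact. The difference was 1.14 to 1.36 under the alternatives tried, each array left out included. The probe set was far dimmer than the 3 probe sets annotated to both alpha globin genes, described below, which read 11.94 to 14.27. Its difference is thus that of a dim probe set and may not stand for Hba-a2 RNA as a whole. Which transcripts it reads was not tested.

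The other alpha chain gene, Hba-a1, also has a probe set of its own, 1453574_at. It read 4.43, 4.69 and 4.22 on the AKR arrays and 4.09, 4.34 and 4.39 on the DBA arrays. These groups overlapped, and none of the 6 values reached the 40th percentile, so it was not tested. AKR minus DBA was 0.17, from means of 4.45 ± 0.24 and 4.27 ± 0.16 (SD, n = 3 each).

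Globin signal near the top of the arrays came from 4 probe sets that the rule leaves out because their annotation names several genes. They were named after their values were seen, so the calls given for them below are a description. The Affymetrix suffixes _s_at and _x_at mark probe sets that can match several transcripts. There were 3 for both alpha globin genes and 1 for 4 beta globin genes, with values from 11.94 to 14.27, where the brightest value of any array was 14.42. Their ranks from the top of the array ran from 4 to 476. Values this near the top of the scale may understate differences.

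Alpha globin probe set 1417714_x_at read 13.23, 11.94 and 12.35 on AKR arrays 1, 2 and 3. On DBA arrays 1, 2 and 3 it read 13.12, 12.84 and 13.21. Array AKR 1 was the highest of all 6, AKR 2 and AKR 3 the lowest, and the groups overlapped. The difference was -0.55 ± 0.26 (SE), opposite in sign to that of the Hba-a2 probe set 1427219_at. Alpha globin probe set 1428361_x_at read 14.27, 13.56 and 13.78 on the AKR arrays and 14.20, 14.01 and 14.26 on the DBA arrays. Alpha globin probe set 1452757_s_at read 14.00, 13.28 and 13.51 on the AKR arrays and 13.87, 13.74 and 13.90 on the DBA arrays. Beta globin probe set 1417184_s_at read 13.98, 13.30 and 13.50 on the AKR arrays and 13.79, 13.59 and 13.87 on the DBA arrays. On each of these, as on 1417714_x_at, AKR 1 was the highest AKR array and AKR 2 the lowest, and DBA 2 was the lowest DBA array. Over the 4 probe sets AKR minus DBA ran from -0.55 to -0.15, and the groups of all 4 overlapped. Limma called 0 of them, with 0 at an unadjusted p under 0.05, also without sharing of variance. With the replicate number fitted as a block, limma called 2 of the 4. Without array AKR 1, limma called all 4, as lower in the AKR cross, and the difference of 1417714_x_at was -0.91.

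Alas2 encodes the erythroid form of the first enzyme of haem synthesis. Its probe set 1451675_a_at read 8.18, 6.71 and 7.28 on AKR arrays 1, 2 and 3. It read 7.72, 7.37 and 7.75 on DBA arrays 1, 2 and 3. The AKR arrays enclosed the DBA arrays, and arrays AKR 1 and AKR 2 were 1.47 apart. The means were 7.39 ± 0.74 and 7.61 ± 0.21 (SD, n = 3 each), a difference of -0.22 ± 0.30 (SE) that limma did not call. The difference was -0.62 without array AKR 1, where limma called it, and 0.11 without array AKR 2, so its sign and its call each rested on 1 array.

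Alas2 and the 4 bright globin probe sets had the same order of arrays within each cross, AKR 1 over AKR 3 over AKR 2, with DBA 2 below DBA 1 and DBA 3. This order was noticed in the values and then counted. It held for 4 of the 4 globin probe sets and 1 of the 9 members (Alas2), and for 7.61% of tested probe sets. It also held for 17 of 96 tested probe sets (17.7%) of the other erythroid genes described below, some genes having more than 1 of these. Probe sets of Fech were among the 17. So were those of genes also expressed in other cells, such as Lmo2, Xpo7 and Myb, the last at 12.77 to 13.02. From AKR 1 to AKR 2 the fall was 0.69 to 1.29 over the 4 globin probe sets and 1.47 for Alas2. The Hba-a2 probe set fell by only 0.11 between these arrays on the log2 scale, and Hba-a1 was 0.26 higher on AKR 2. In bulk tissue, fewer cells of a type and less RNA per cell cannot be told apart.

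**Figure D2:**
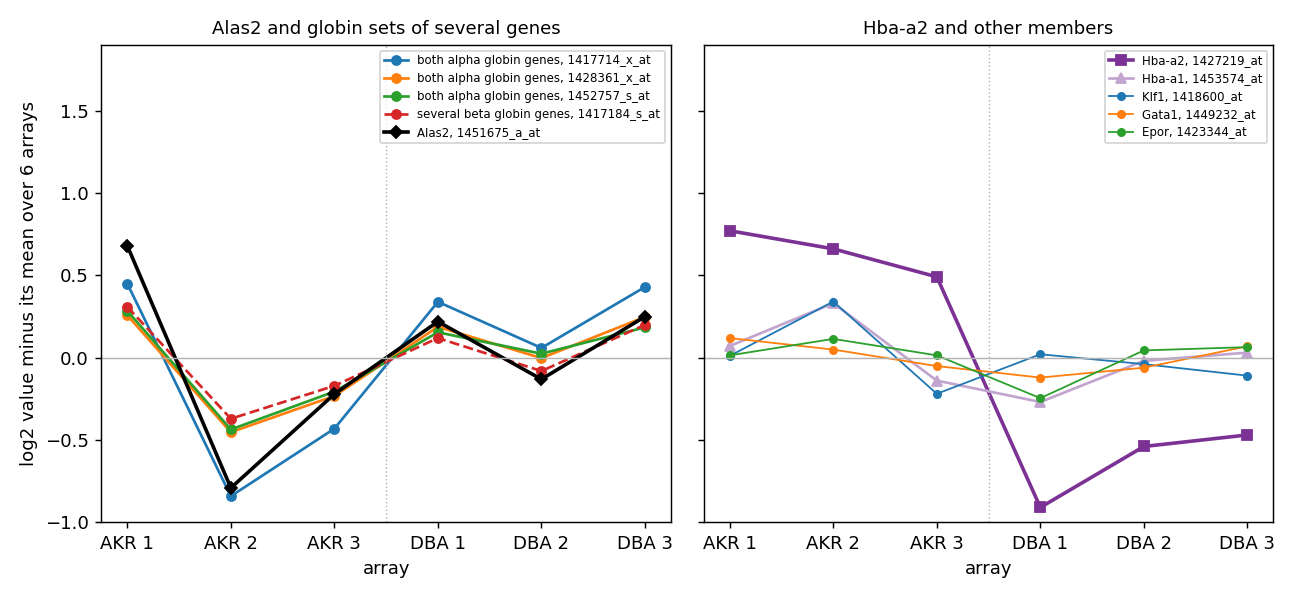
Log2 value minus the mean of the same probe set over the 6 arrays, for Alas2 and the 4 globin probe sets of several genes (left) and for the Hba-a2, Hba-a1, Klf1, Gata1 and Epor probe sets (right); the dotted line parts the crosses. The left-hand lines share a peak on AKR 1 and a trough on AKR 2, where Alas2 read 8.18 and 6.71, while the Hba-a2 line steps down between the crosses by 1.28.

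Likeness of profile was measured as the root mean square difference of log2 values, each centred on its own mean, over the 6 arrays. For Alas2 the most alike of 23701 tested probe sets with a symbol was alpha globin probe set 1417714_x_at, at 0.175, and the other 3 bright globin probe sets ranked 8, 9 and 11. The pool for Alas2 was chosen after its values were seen. Ranks 2 to 5 were held by probe sets of genes that are neither members nor among the other erythroid genes described below. They were Btf3 (0.189), Egr1 (0.204), Atf4 (0.212) and Armcx1 (0.212). The genes at the remaining ranks between the globin probe sets are not given here. Egr1, an immediate-early transcription factor gene, read 11.14, 10.04 and 10.65 on AKR arrays 1, 2 and 3, and 10.86, 10.27 and 10.62 on DBA arrays 1, 2 and 3. Array AKR 1 was thus the highest and AKR 2 the lowest for Egr1 as well. Its part in the Alas2 values was not tested.

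For Hba-a2, the member with the largest SD over the 6 arrays (0.721), the 5 most alike probe sets of other genes with 1 symbol were those of Scp2 (0.101), Srcap (0.135), Tmed7 (0.142), Map7 (0.150) and Fbxw11 (0.151). None of them is a globin or haem gene. Each separated the crosses, as picking by likeness to Hba-a2 ensures, with AKR minus DBA of 1.10 to 1.36. The other tested probe sets of these 5 genes did not all do so: of 12, limma called 2 with the AKR arrays higher and 5 with the DBA arrays higher, with differences from -1.03 to 1.17. For Tmed7 and Scp2 the other probe sets differed by -0.35 to -0.12, opposite in sign to the probe set most like Hba-a2.

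Slc4a1 encodes band 3, the anion exchanger of the red cell membrane. None of its 3 probe sets was tested, since all lay below the 40th percentile on all 6 arrays. Probe set 1416464_at read 5.15, 5.27 and 5.15 on the AKR arrays and 5.10, 5.15 and 5.04 on the DBA arrays. Probe set 1431743_a_at read 3.88, 3.88 and 3.82 on the AKR arrays and 3.88, 3.86 and 3.56 on the DBA arrays. Probe set 1434502_x_at read 4.06, 4.07 and 3.60 on the AKR arrays and 3.31, 3.64 and 3.73 on the DBA arrays. The groups overlapped on all 3, and AKR minus DBA was 0.09, 0.10 and 0.35 in this order. No Slc4a1 probe set had the peak on AKR 1 and trough on AKR 2 that Alas2 showed.

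Klf1, the erythroid Krüppel-like factor that binds CACCC boxes, read 5.85, 6.18 and 5.62 on the AKR arrays and 5.86, 5.80 and 5.73 on the DBA arrays. Its AKR arrays enclosed its DBA arrays, and AKR 2, the lowest array for Alas2, was the highest for Klf1. The difference was 0.09 ± 0.14 (SE), and it was -0.06 without AKR 2. Gata1, a zinc finger factor of red cells, megakaryocytes, mast cells and eosinophils, read 5.72, 5.65 and 5.55 on the AKR arrays and 5.48, 5.54 and 5.67 on the DBA arrays. Its groups overlapped, with a difference of 0.08 ± 0.10 (SE). Epor, the erythropoietin receptor gene, read 6.54, 6.64 and 6.54 on the AKR arrays and 6.28, 6.57 and 6.59 on the DBA arrays. Array DBA 1 was the lowest for Epor, the other 5 lay close together, and the difference was 0.09 ± 0.11 (SE), or -0.01 without DBA 1. All 3 regulators stood between the 43.8th and the 59.7th percentile of their arrays, only a little above the filter.

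Other erythroid genes were taken from a list of 80, of which 55 had a tested probe set with 1 symbol. A gene was represented by its brightest tested probe set, and p-values were adjusted over 12855 genes. Limma called 9 of the 55 towards the AKR cross and 2 towards the DBA cross, and the remaining 44 did not pass. Over all genes 24.0% were called, 12.5% towards the AKR cross and 11.5% towards the DBA cross. The median difference was 0.07 over the 55 genes and 0.03 over all tested genes. Many of the 55 genes are also expressed in cells other than red cells. The 11 calls fell to 5 without array AKR 3, to 7 without AKR 2 and to 7 without DBA 3.

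Haem synthesis genes had 2 of 9 called, both towards the AKR cross. Ppox, which encodes protoporphyrinogen oxidase, read 8.41, 8.32 and 8.40 on the AKR arrays and 8.04, 7.90 and 7.91 on the DBA arrays, without overlap. It was 1.34-fold higher in the AKR cross (0.42 ± 0.08, SE, adjusted p = 0.00665, limma). Alad, of the step after Alas2, was 1.23-fold higher (0.30 ± 0.10, adjusted p = 0.0490, limma), and its call was lost in 8 of 17 settings. Fech, ferrochelatase, which puts the iron into haem, was not called (0.12 ± 0.08, adjusted p = 0.300, limma). That was its brightest probe set, 1418699_s_at, which read 9.11, 8.90 and 8.86 on the AKR arrays and so lacked the array order of Alas2. The Fech probe set 1449181_at read 7.52, 7.16 and 7.22 on the AKR arrays and 7.66, 7.36 and 7.64 on the DBA arrays. It had the array order of Alas2 and differed by -0.26, opposite in sign. Fech probe set 1418698_a_at had this order too and differed by 0.22. Genes of iron handling had 1 of 8 higher in each cross. Fth1, the ferritin heavy chain gene, was higher in the AKR cross (0.28 ± 0.04, adjusted p = 0.00308, limma). Its other tested probe set, 1448771_a_at, differed by 0.11 and was not called. Ireb2, an iron regulatory protein gene, was higher in the DBA cross (-0.25 ± 0.08, adjusted p = 0.0448, limma), a call lost in 10 of 17 settings. Tfrc, the transferrin receptor gene, differed by -0.02 ± 0.09 (adjusted p = 0.916, limma).

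Of globin genes with a tested probe set of 1 symbol there were only Hbb-b2 and the embryonic gene Hba-x, and neither was called (0 at an unadjusted p under 0.05 in limma). Hbb-b2 probe set 1427865_at read 5.89, 5.73 and 5.83 on the AKR arrays and 5.65, 5.77 and 5.22 on the DBA arrays (0.27 ± 0.14, adjusted p = 0.205, limma). Its untested probe set 1427866_x_at read 5.34, 4.43 and 4.64 on the AKR arrays and 5.11, 5.01 and 5.54 on the DBA arrays. The second of these had AKR 1 as the highest AKR array and AKR 2 as the lowest, and the first did so too, over a narrower range.

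Red cell membrane genes had 1 of 9 called, towards the DBA cross. That gene was Tmod1, which encodes tropomodulin of the membrane skeleton. It read 5.82, 5.80 and 5.62 on the AKR arrays and 6.30, 6.19 and 6.08 on the DBA arrays, 1.36-fold higher in the DBA cross (-0.45 ± 0.11, adjusted p = 0.0162, limma). It was not called in 3 of 17 settings, among them that without array AKR 3. Transcription factor genes had 2 of 11 called, both towards the AKR cross. These were Ldb1, which bridges the GATA1 complex (0.37 ± 0.11, adjusted p = 0.0365, limma), and Cbfa2t3, a corepressor gene (0.35 ± 0.08, adjusted p = 0.0171, limma). Their calls were lost in 6 and in 5 of 17 settings. Of the other 3 tested Cbfa2t3 probe sets none was called. Gfi1b was not called (0.20 ± 0.14, adjusted p = 0.323, limma), and Tal1, at 4.02 to 4.42 on the 6 arrays, was not tested.

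Erythropoietin signalling genes had 1 of 5 higher in the AKR cross, Stat5a (0.35 ± 0.07, adjusted p = 0.00935, limma), which encodes a transcription factor also used by other cytokine receptors. Its other tested probe set was called in the same direction (0.46). Jak2, the kinase bound to the receptor, was not called on the brighter of its probe sets (-0.12 ± 0.07, adjusted p = 0.212, limma) and was called higher in the DBA cross on the other (-0.30 ± 0.08, adjusted p = 0.0285 over probe sets, limma). Late erythroid genes and red cell enzymes had 3 of 11 called, all towards the AKR cross. They were Mgst3, a glutathione transferase gene (0.41 ± 0.09, adjusted p = 0.0120, limma), Prdx2, a peroxidase gene abundant in red cells (0.26 ± 0.05, adjusted p = 0.00792, limma), and Isg20, an exonuclease gene (0.29 ± 0.07, adjusted p = 0.0204, limma). The Isg20 call was lost in 4 of 17 settings, that of Prdx2 only with the mean of its probe sets and that of Mgst3 only without sharing of variance. Car2, a carbonic anhydrase gene, had the largest difference of the 55 genes, towards the DBA cross, and missed the threshold over genes (-0.51 ± 0.16, adjusted p = 0.0502 over genes and 0.0459 over probe sets, limma). It read 8.57, 7.99 and 8.10 on the AKR arrays and 9.0, 8.68 and 8.52 on the DBA arrays, so that only AKR 1 overlapped the DBA arrays. On probe sets other than the brightest, limma called Cat, the catalase gene, higher in the DBA cross (-0.28) and Tspan33, a tetraspanin gene, higher in the AKR cross on 2 (0.36 and 0.46).

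**Figure D3:**
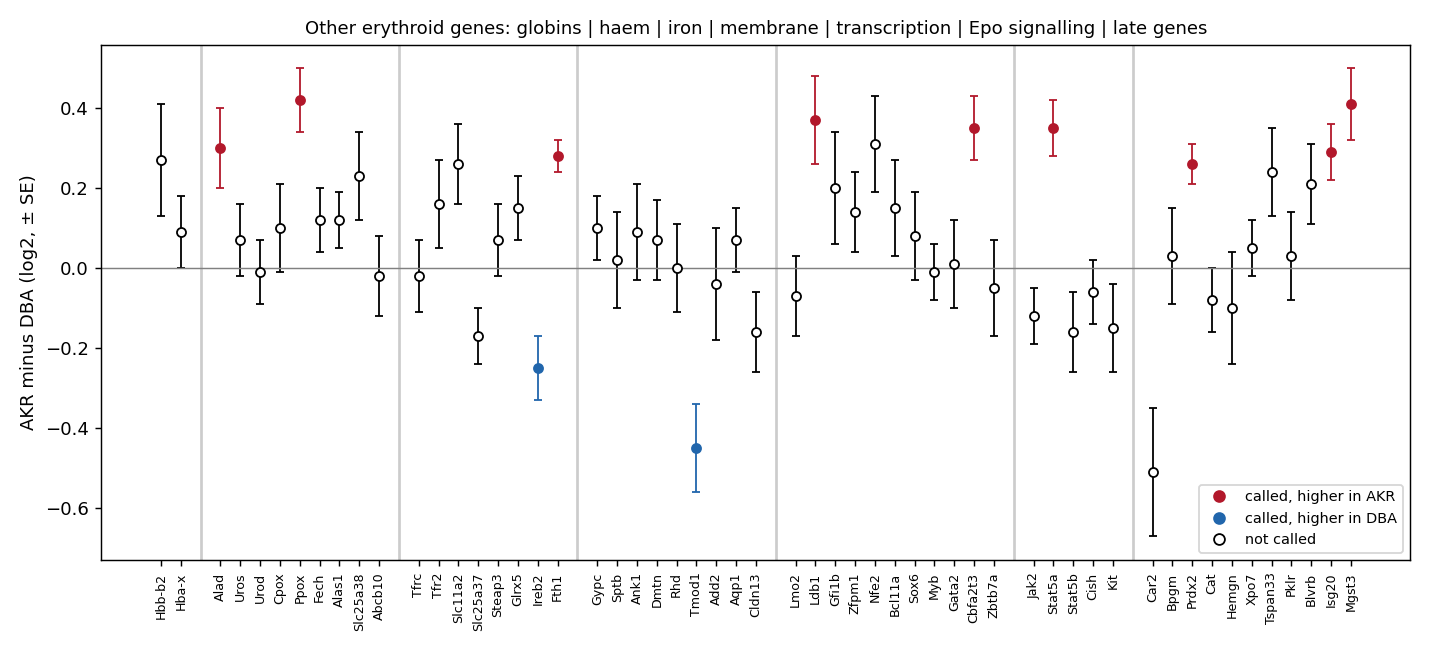
AKR minus DBA on the log2 scale with its SE (n = 3 arrays per cross) for the 55 tested genes of the other erythroid lists, in 7 groups parted by grey lines; filled points were called by limma. The called genes lie between 0.26 and 0.42 on the AKR side and at -0.25 (Ireb2) and -0.45 (Tmod1) on the DBA side, and most open points lie within 0.2 of 0, with Car2 at -0.51 the farthest.

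The arrays carried the markers of thymus, with Rag1 at 12.88 to 13.10 and Psmb11, of cortical epithelium, at 9.13 to 9.34. Of 14 red cell membrane genes with a probe set of 1 symbol, 9 passed the filter, Aqp1 (8.30 to 8.51) and Gypc (7.44 to 7.64) among them, both also expressed in other cells. Rhag (2.97 to 3.23) and Epb42 (1417338_at, 4.92 to 5.29) were among the 5 that did not. Neutrophil markers, another class of blood cell, had 3 of 6 genes higher in the DBA cross, against 11.5% of all tested genes. Their mean level was 7.45, 8.03 and 8.13 on AKR arrays 1, 2 and 3 and 8.41, 8.54 and 8.23 on DBA arrays 1, 2 and 3. It was lowest on AKR 1, where Alas2 and the bright globin probe sets were highest. Platelet markers had 0 of 3 tested genes called (0 at an unadjusted p under 0.05 in limma and 1 without sharing of variance), with a mean level of 6.60 to 6.89 in the AKR cross, highest on AKR 2, and of 6.55 to 6.71 in the DBA cross. The amount of blood in each sample was not measured, and its part in these values was not tested.

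**Figure D4:**
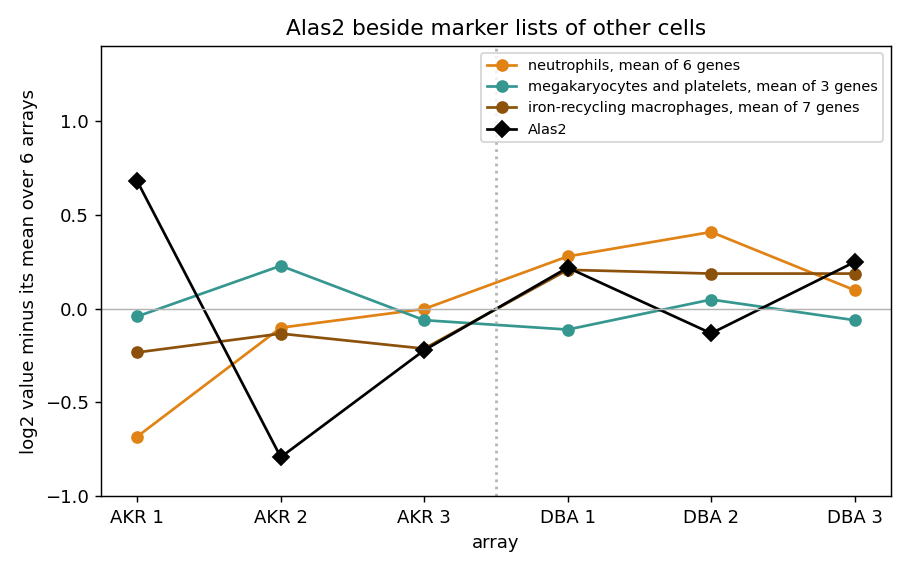
Log2 value minus its mean over the 6 arrays for Alas2 and for the mean of the tested marker genes of neutrophils (6 genes), megakaryocytes and platelets (3 genes) and iron-recycling macrophages (7 genes). Not all genes of the macrophage list are particular to macrophages. On AKR 1 Alas2 stood at its highest (8.18) and the neutrophil mean at its lowest (7.45).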

How the data were processed

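The deposited table holds 45101 probe set values per array on a log2 scale, as the authors made them. The submitters' processing notes name MAS5 and RMA with no role, so which made the values is not known here. The log2 values were used as deposited. Gene symbols came from the platform annotation; the 64 control probe sets were left out. Differences were fitted over 27385 tested probe sets by the two-sided test of limma 3.58.1 (lmFit, then eBayes with a trend; R 4.3.3) and checked on simulated data. The limited number of arrays sets the precision. Figures used matplotlib 3.10.9 under Python 3.11.15. The members, lists and alternatives were chosen with earlier results of these data known. The text names all members, up to 6 called genes per direction of the other erythroid list by adjusted p, fixed genes (Hbb-b2, Tfrc, Fech, Tal1, Gfi1b, Jak2) and up to 2 genes per list of other cells. Isg20, Alad, Ldb1, Hba-x, Car2, Cat, Tspan33, Hp, Hmox1, Slc40a1, Prg2, Dntt, the genes most like Alas2 and those that check the tissue (Rag1, Psmb11, Rhag, Epb42, Aqp1, Gypc) fall outside that rule and were named after their values were seen. Alternatives were 2 other filters, 2 normalizations, other variance models, array weights, a replicate block, averaging over the probe sets of each gene, and each array left out.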

Additional observations from a re-analysis of the deposited data

How the results depend on the processing

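With the filter at the 60th percentile only 1 member (Alas2) was tested and 0 were called, and with single arrays left out 1 to 2 were called, the second being Alas2 without AKR replicate 1. Without sharing of variance between probe sets, 3544 instead of 7449 tested probe sets were called, 4 instead of 11 other erythroid genes (4 instead of 9 higher in the AKR cross, 0 instead of 2 in the DBA cross), and 1 instead of 8 marker genes of other cells (1 instead of 2 higher in the AKR cross, 0 instead of 6 in the DBA cross). The 2 other erythroid genes higher in the DBA cross became 1 without a filter, after median centring and without a trend, and 4 after averaging over each gene's probe sets. Leaving out single arrays gave 5161 to 6317 probe sets, 5 to 10 other erythroid genes (5 to 8 higher in the AKR cross, 0 to 3 in the DBA cross) and 5 to 9 marker genes of other cells (2 to 3 and 3 to 6). Whether the replicate numbers pair the arrays was not settled. Deviations of arrays of the same number correlated at 0.389, 0.07 and 0.371. For arrays of unlike number the correlations were -0.375 to 0.075, the highest that of DBA 2 with AKR 3. With the replicate block 9839 probe sets, 14 other erythroid genes and 10 marker genes were called, and 2 of the 4 bright globin probe sets. The cause of these changes was not tested, beyond the fewer arrays or probe sets in some settings. Low signal limits Hba-a1, Slc4a1 and the DBA values of Hba-a2, which lay below the 40th percentile.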

Other observations

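Genes of iron-recycling macrophages and of the handling of red cell remnants were examined as a list. Not all of them are particular to macrophages. Of 7 tested genes 3 were called, all towards the DBA cross, beside 11.5% of all tested genes called towards it. Over all lists of other cells 8 of 32 tested genes (25%) were called, near the 24.0% over all tested genes. Cd163, the receptor for haemoglobin bound to haptoglobin, read 5.21, 5.60 and 5.65 on the AKR arrays and 6.24, 6.42 and 6.86 on the DBA arrays. It was 2.03-fold higher in the DBA cross (-1.02 ± 0.18, SE, adjusted p = 0.00430, limma). Vcam1, an adhesion molecule gene also expressed in stroma and endothelium, read 10.51, 10.56 and 10.70 on the AKR arrays and 10.86, 11.18 and 11.26 on the DBA arrays (-0.51 ± 0.10, adjusted p = 0.00787, limma). The third called gene was Hp, which encodes haptoglobin and is not particular to macrophages. It was named after its value was seen, and its groups overlapped (-0.76 ± 0.24, adjusted p = 0.0488, limma). Hmox1, the haem oxygenase gene, and Slc40a1, the iron exporter gene, did not pass, with differences of -0.08 and -0.12. The mean of the 7 genes was 8.01 to 8.11 on the AKR arrays and 8.43 to 8.45 on the DBA arrays. This gap came mainly from the 3 called genes, since the other 4 differed by only -0.12 to -0.08.

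Among the neutrophil markers S100a8 read 8.94, 9.55 and 9.80 on the AKR arrays and 10.39, 10.58 and 10.21 on the DBA arrays (-0.96 ± 0.19, adjusted p = 0.00796, limma), and S100a9 differed by -0.97 ± 0.22 (adjusted p = 0.0136, limma). Markers of mast cells, basophils and eosinophils, cells that also use Gata1, had 0 of 3 tested genes called. Cpa3, a mast cell protease gene, differed by -0.21 ± 0.17, and Kit by -0.15 ± 0.11. The third, Prg2, an eosinophil granule gene, differed by -0.68 ± 0.32 with overlapping groups. The mean of the 3 genes was 5.79 to 6.13 on the AKR arrays and 6.17 to 6.52 on the DBA arrays. Endothelial markers had 0 of 3 tested genes called, with Pecam1 at -0.06 ± 0.10. At an unadjusted p under 0.05 in limma, these lists too had 0 genes each. Thymocyte markers had 1 of 6 called, Cd3e (0.30 ± 0.04, adjusted p = 0.00210, limma), and thymic epithelial markers 1 of 4, Foxn1 (0.67 ± 0.12, adjusted p = 0.00575, limma), both higher in the AKR cross. The thymocyte marker Dntt differed by 0.03 on its brightest probe set. Its probe set 1420166_at was called higher in the AKR cross (1.57 ± 0.17, adjusted p = 0.000294 over probe sets, limma). Of 12855 tested genes 24.0% were called.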
